A study of Homo sapiens with 8 samples.

Results

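The 5 entries described here are the endogenous RNA-editing enzyme genes ADAR and ADARB1 and the construct entries APOBEC, MYCT2AGFP and HAT2AmCherry, chosen by name from the 59414 entries of the deposited count table. All 8 libraries came from HEK293T, an established line of human embryonic kidney cells, in an experiment that the titles call PB-TRIBE-STAMP. Its cells carried RNA editors directed to P-bodies, cytoplasmic granules that hold untranslated mRNA together with mRNA decay and repression proteins. The 4 groups had 2 libraries each, numbered as batch 1 and batch 2 in the labels: P-bodies purified by sorting, the cytosol used as its counterpart, cells given an siRNA against EDC4 (siEDC4), and cells given a control siRNA (siNC). Libraries of sorted P-bodies started from 50 ng of RNA, those of cytosol from 100 ng and those of both siRNA groups from 500 ng, and the labels give the RNA as total, cytoplasmic and polyA in the same order. In the sort, the fraction therefore cannot be told apart from the input amount and the kind of RNA. The labels used here do not say which P-body protein carried the editors, which marker was sorted, or whether a group's libraries are separate cultures. Every p-value therefore measures only the spread between these libraries, which may be technical. No library without the editors was among the samples.

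ADAR enzymes change adenosine to inosine (A-to-I) in double-stranded RNA, and sequencing reads inosine as guanosine. ADAR, which encodes ADAR1, marks the cell's own duplex RNA so that innate sensors leave it alone, and ADARB1, which encodes ADAR2, recodes neurotransmitter receptor mRNAs in the brain. APOBEC enzymes are a separate family that changes cytidine to uridine (C-to-U) or to its DNA counterpart, and APOBEC1 is known for editing the apolipoprotein B mRNA. Both activities are borrowed by RNA-mapping methods: TRIBE editors carry the catalytic domain of an ADAR, and STAMP editors carry an APOBEC. From counts per gene, reads of an editor built on a human deaminase domain and reads of the matching endogenous gene cannot be told apart.

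ADAR (ENSG00000160710.18) lies on the minus strand of chromosome 1 at 154581695 to 154628013 in hg38, with 12242 exonic bases in 17 blocks. ADARB1 (ENSG00000197381.16) lies on the plus strand of chromosome 21 at 45073853 to 45226560, with 10049 exonic bases in 24 blocks, a few of which overlap SSR4P1 on the other strand. No other entry overlapped the exons of ADAR. The construct entries are short contigs of their own: APOBEC of 737 bases, MYCT2AGFP of 840 bases on a contig named MYC_T2A_GFP, and HAT2AmCherry of 810 bases on a contig named HA_T2A_mCherry. These names hold the Myc and HA epitope tags, the T2A peptide that splits a protein chain during translation, and the fluorescent reporters GFP and mCherry. Which deaminase goes with which tag, and the species of the APOBEC, were not given in the sources used here.

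The active sites of the human enzymes show how alike, and how separable, the ADAR and ADARB1 transcripts are. The stretches below come from GENCODE v29 transcripts (GRCh38), 60 bases of coding sequence each, inside exons of the deposited annotation. Capitals mark the histidine, alanine and glutamate codons of the catalytic motif, in which the histidine binds zinc and the glutamate moves the proton during deamination. The ADAR stretch is in exon 9 of ADAR-202, at chr1:154589371-154589430 on the minus strand, and the ADARB1 stretch is in exon 4 of ADARB1-202, at chr21:45182659-45182718 on the plus strand.
ADAR: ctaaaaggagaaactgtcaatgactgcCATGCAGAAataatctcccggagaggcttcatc
ADARB1: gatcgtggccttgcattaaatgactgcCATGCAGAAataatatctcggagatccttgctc
The stretches match at 40 of 60 bases (66.7%), and the run across the capitals is identical over 23 bases. That run is also the longest exact match on the same strand between any of the 23 annotated ADAR transcripts and any of the 15 ADARB1 transcripts, and on opposite strands the longest was 20 bases.

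In the sort, counts summed to between 21186963 and 23716926 per library. Tests used edgeR's quasi-likelihood method on all 18745 entries that passed its filter on low counts, with Benjamini-Hochberg adjusted p-values and a threshold of 0.05. Of those entries 57.8% passed, 28.8% higher and 29.0% lower in sorted P-bodies. All 5 members passed the filter, and 1 of them, ADAR, passed the test. With library size as the only scaling, 4257 entries were higher and 6911 lower, against 5401 and 5440 with TMM, and the median log2 fold change was -0.23, against -0.03. Levels are given as CPM, which scales counts to a common library size with TMM factors, with SD over n = 2 libraries per group, and are compared between entries only per kilobase of exon. In bulk libraries a lower level per cell and fewer molecules in the fraction cannot be told apart.

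Among the entries of the enzyme genes, ADAR was lower in sorted P-bodies. Reads of an editor with a human ADAR domain, if one was used, could not be told apart from those of the matching gene, ADAR or ADARB1. ADAR had 406 and 401 CPM in sorted P-bodies 1 and 2, against 497 and 526 CPM in cytosol 1 and 2. Both P-body libraries lay under both cytosol libraries. With 2 libraries against 2, such a separation has a probability of 0.333 without any difference between the groups. The share of all entries that separate in this way was not computed. Mean levels were 403 ± 3.66 CPM in sorted P-bodies, against 511 ± 20.5 CPM in cytosol, a log2 fold change of -0.34 ± 0.11 (SE, edgeR adjusted p = 0.022), and within batches it was -0.29 (batch 1) and -0.39 (batch 2). That value is at the 35.0th percentile of the log2 fold changes of all entries tested. The call was lost without cytosol 1 (-0.40, adjusted p = 0.17) and without cytosol 2 (-0.31, adjusted p = 0.31), where the spread came from the P-body libraries alone, which differed more from each other than the cytosol libraries did (chi-square of counts per degree of freedom 22.5 in sorted P-bodies, against 3.0 in cytosol).

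ADARB1 lay on the same side but did not pass. Its level was 561 and 523 CPM in sorted P-bodies, against 622 and 627 CPM in cytosol. The P-body libraries were the more scattered pair. The log2 fold change was -0.20 ± 0.11 (edgeR adjusted p = 0.14), with a 95% interval from -0.42 to 0.01 and within-batch values of -0.15 and -0.26. With library size as the only scaling it was -0.40 and passed (adjusted p = 0.012), and ADAR was then at -0.54 (adjusted p = 0.0018). Leaving out a P-body library brought ADARB1 past the threshold, at -0.27 without sorted P-bodies 1 (adjusted p = 0.00013) and -0.17 without sorted P-bodies 2 (adjusted p = 0.016), in fits that take the spread from the cytosol libraries alone and assume that the lone P-body library varies like them. The reads that the A-to-I table lists for ADARB1 gave -0.01 (adjusted p = 0.96) in place of the counts, while those of ADAR gave -0.24 (adjusted p = 0.028). The A-to-I table held 56.6% and 53.3% of ADARB1's counts in sorted P-bodies, against 60.8% and 59.0% in cytosol, which put ADARB1 between the 1.58th and 2.59th percentile of listed genes. For the median gene the share was 69.9% and 63.8% in sorted P-bodies, against 84.9% and 84.6% in cytosol, and for ADAR it was 67.3% and 62.9% in sorted P-bodies, against 76.5% and 75.1% in cytosol. These shares put ADAR at the 25.1th and 39.3th percentile in sorted P-bodies, and at the 8.78th and 8.13th in cytosol. The cause of the low share of ADARB1, and of that of ADAR in cytosol, was not tested.

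The construct entries were abundant in both fractions, and none of the 3 passed the test between them. APOBEC had 562 and 530 CPM in sorted P-bodies, against 500 and 509 CPM in cytosol. The log2 fold change of 0.12 ± 0.11 did not pass (edgeR adjusted p = 0.39, 95% interval -0.098 to 0.33) and stood at -0.086 with library size as the only scaling. MYCT2AGFP had 442 and 420 CPM in sorted P-bodies, against 457 and 441 CPM in cytosol, and the groups overlapped (log2 fold change -0.06 ± 0.11, edgeR adjusted p = 0.65, interval -0.27 to 0.15). HAT2AmCherry had 210 and 196 CPM in sorted P-bodies, against 208 and 204 CPM in cytosol, with the cytosol values inside the range of the P-body values (-0.02 ± 0.11, edgeR adjusted p = 0.87, interval -0.23 to 0.19). With library size as the only scaling MYCT2AGFP stood at -0.26 (adjusted p = 0.065) and HAT2AmCherry at -0.22 (adjusted p = 0.11), and with RLE factors HAT2AmCherry was at 0.01. Together these 3 entries took 0.116% and 0.103% of all counts in sorted P-bodies, against 0.127% and 0.122% in cytosol. The remaining entries without an Ensembl number were Tad-8e and Tad-X, each with 0 counts per library, which leaves room for 0.126 to 0.142 CPM.

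**Figure D1:**
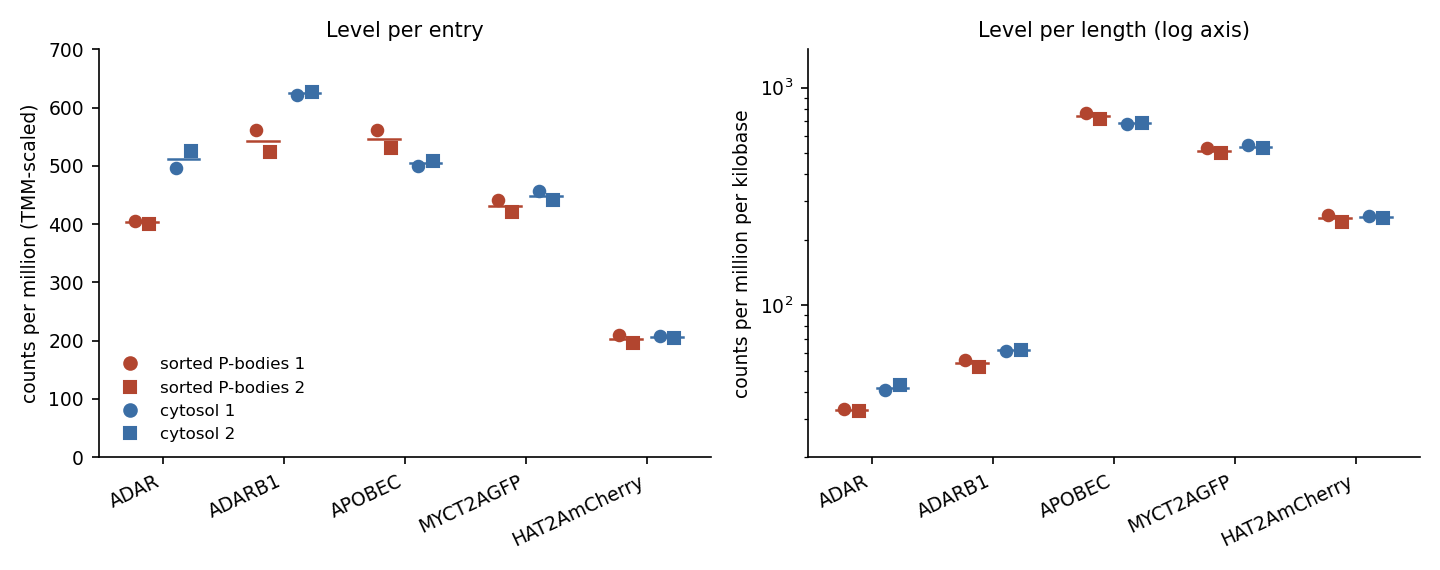
Levels of the 5 members in each sort library, as TMM-scaled CPM on the left and per kilobase of exon on a log axis on the right. Points are libraries, short lines are group means, and sorted P-bodies stand left of cytosol. ADAR lies lower in sorted P-bodies, and ADARB1 lies on the same side but did not pass the test. Per kilobase the construct entries lie above both genes.

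Per kilobase the order was the same in both fractions. APOBEC was highest, at 741 ± 30.7 CPM per kilobase in sorted P-bodies, against 684 ± 8.85 in cytosol, followed by MYCT2AGFP at 513 ± 18.4 in sorted P-bodies, against 535 ± 13.6 in cytosol. HAT2AmCherry came next, at 251 ± 12.9 CPM per kilobase in sorted P-bodies, against 255 ± 3.3 in cytosol, then ADARB1 at 54.0 ± 2.69 in sorted P-bodies, against 62.2 ± 0.308 in cytosol. ADAR was lowest, at 33.0 ± 0.299 CPM per kilobase in sorted P-bodies, against 41.8 ± 1.68 in cytosol. Every neighbouring pair in this order was separated by more than the spread over libraries in both fractions. The lengths used for ADAR and ADARB1 were all annotated exonic bases, 12242 and 10049. The transcripts ADAR-202 and ADARB1-202 have 6610 and 6604 bases. Levels and percentiles per kilobase of these 2 genes may therefore be understated against the construct entries, and the spread over libraries does not cover that error. Among all entries tested, the 3 construct entries stood between the 99.6th and 99.9th percentile per kilobase, ADARB1 at the 97.8th and ADAR at the 95.5th.

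Ratios of counts inside a library do not depend on the scaling. They are not corrected for entry length, so they compare the fractions and not the levels of 2 entries. APOBEC over MYCT2AGFP was 1.27 and 1.26 in sorted P-bodies, against 1.09 and 1.15 in cytosol. HAT2AmCherry over MYCT2AGFP was 0.477 and 0.466 in sorted P-bodies, against 0.455 and 0.463 in cytosol. The ratio with APOBEC separated the fractions beyond its exact 95% counting intervals (1.24 to 1.31 and 1.23 to 1.30 in sorted P-bodies, 1.06 to 1.12 and 1.12 to 1.18 in cytosol), and the reporter ratio did not. ADARB1 over ADAR was 1.38 and 1.30 in sorted P-bodies, against 1.25 and 1.19 in cytosol, and ADARB1 over APOBEC was 0.999 and 0.987 in sorted P-bodies, against 1.25 and 1.23 in cytosol. With 2 libraries against 2, an exact two-sided permutation test cannot give a p below 0.333, so these ratios carry no test, and the intervals cover counting error only.

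**Figure D2:**
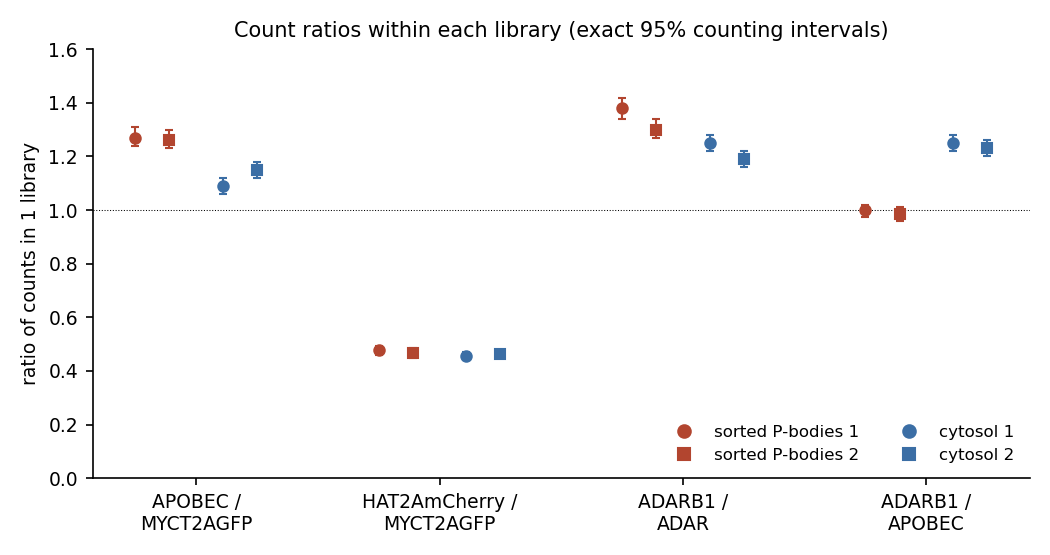
Ratios of counts between members inside each of the 4 sort libraries, with exact 95% counting intervals. Sorted P-bodies stand left of cytosol. ADARB1 over APOBEC is close to 1 in both P-body libraries and between 1.23 and 1.25 in both cytosol libraries, while HAT2AmCherry over MYCT2AGFP stays between 0.455 and 0.477 in all 4. Counts are not corrected for entry length, so a ratio of 1 does not mean equal levels.

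The other deaminases give the family context. Of 27 other human adenosine, cytidine and purine deaminase genes, 15 passed the filter on low counts. Of these, sorted P-bodies had 2 at a higher and 7 at a lower level, with a median log2 fold change of -0.37, against -0.03 over all entries tested. The shares over all entries tested were 28.8% higher and 29.0% lower. ADAT2, the catalytic subunit of the tRNA adenosine deaminase, was higher (75.6 and 89.9 CPM in sorted P-bodies, against 61.7 and 64.1 CPM in cytosol, log2 fold change 0.40, edgeR adjusted p = 0.014), as was CDADC1, a cytidine deaminase domain protein (0.39, edgeR adjusted p = 0.036). APOBEC3C, an antiviral cytidine deaminase, was lower, at 22.5 and 18.4 CPM in sorted P-bodies, against 53.5 and 56.3 CPM in cytosol (-1.42 ± 0.12, edgeR adjusted p = 1.1e-05). ADA, the adenosine deaminase of purine salvage (-0.66), APOBEC3F (-0.61) and ADAT1, which deaminates a tRNA anticodon neighbour (-0.41), were also lower (edgeR adjusted p from 0.0015 to 0.0066). Exons of ADA and ADAT1 overlap other entries and the APOBEC3 genes are close paralogs, so their counts are uncertain. DESeq2 called 1 higher and 4 lower, and library-size scaling 0 higher and 7 lower. The calls of ADAT2 and CDADC1 ended under library-size scaling (0.19 and 0.19) and without either cytosol library (0.35 and 0.41 for ADAT2, 0.33 and 0.42 for CDADC1), CDADC1 also lost its call in DESeq2 (adjusted p = 0.088) and without sorted P-bodies 2 (0.23), and that of ADAT1 ended without cytosol 2 (-0.35). The other 12 genes had at most 9 counts in any library, among them APOBEC1, APOBEC2 and ADAD2 with 0 in all 4.

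**Figure D3:**
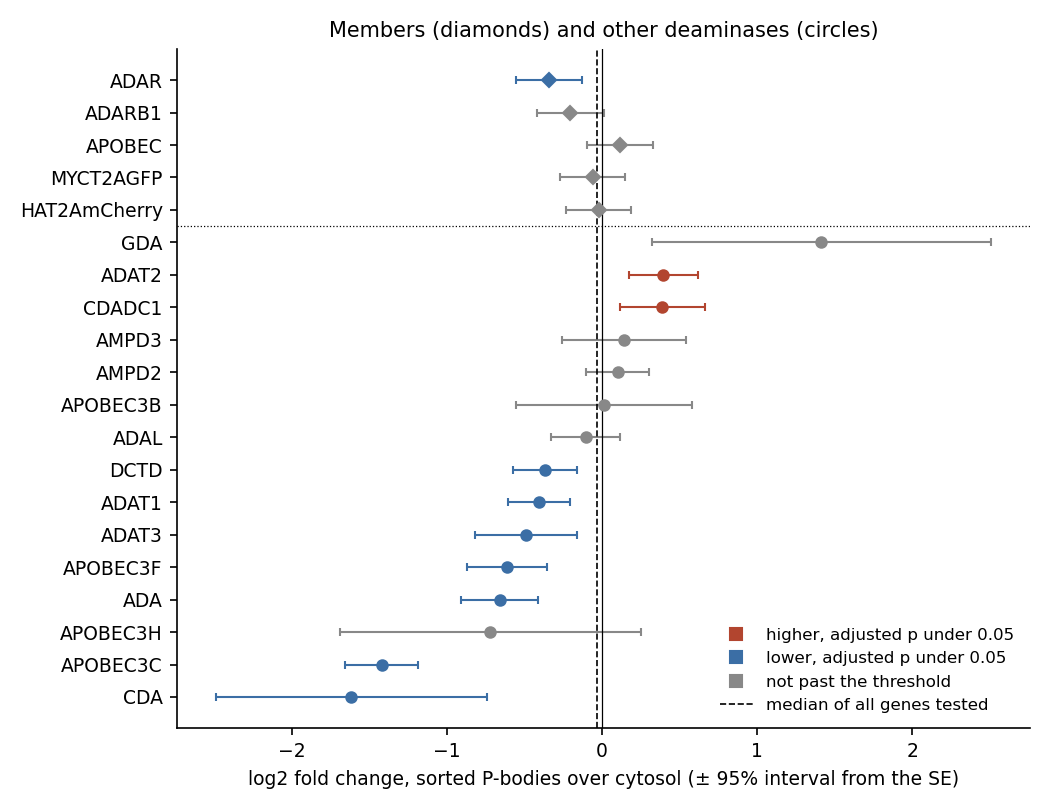
Log2 fold change of sorted P-bodies over cytosol for the 5 members (diamonds) and the 15 other deaminase genes tested (circles), with 95% intervals from the SE. Colour shows the side of the calls at an adjusted p under 0.05, and the dashed line is the median of all entries tested, at -0.03. ADAR is the only member past the threshold, and 7 of the 9 called deaminases lie to the left. Over all entries tested 28.8% were called higher and 29.0% lower.

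Proteins that bind or sense double-stranded RNA share the substrate of ADAR enzymes. Among 21 such genes that passed the filter, 10 had higher and 5 lower levels in sorted P-bodies (median log2 fold change 0.37). For all entries tested the shares were 28.8% higher and 29.0% lower. DICER1, which cuts microRNA precursors, had 922 and 1280 CPM in sorted P-bodies, against 238 and 231 CPM in cytosol (2.23 ± 0.16, edgeR adjusted p = 6e-06). DHX9, a helicase that unwinds Alu duplexes (1.35), and STAU2, a double-stranded RNA transport factor (1.31), were also higher, while MAVS, the mitochondrial adaptor of RNA sensing, was lower (-0.76), as were PRKRA (-0.64), DGCR8 (-0.46) and ILF2 (-0.39), with edgeR adjusted p from 1.1e-05 to 0.013 for these 6. The call of ILF2 ended in the reads of the A-to-I table (-0.11, adjusted p = 0.25) and without cytosol 1 (-0.47) or cytosol 2 (-0.34). SON, a splicing protein with a double-stranded RNA binding domain, was also higher, at 1380 and 1610 CPM in sorted P-bodies, against 748 and 742 CPM in cytosol (1.01).

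Known recoding substrates of ADAR enzymes numbered 13 of 19 tested, of which 5 were higher and 3 lower (median 0.28). FLNA, which encodes an actin cross-linking filamin, had 5580 and 5520 CPM in sorted P-bodies, against 1980 and 2070 CPM in cytosol (log2 fold change 1.45). AZIN1, an antizyme inhibitor (1.04), and COPA, a coatomer subunit (0.66), were higher, and TMEM63B (-1.08), BLCAP (-0.62) and IGFBP7 (-1.28) were lower (edgeR adjusted p from 1e-05 to 0.0015 for these 6). Of 10 genes reported to act on ADAR enzymes, 5 were higher and 3 lower. CREB1, a transcription factor of ADARB1 (2.39), the nuclear import receptors KPNA3 (1.73) and TNPO1 (1.50) and the helicase DHX15 (1.24) were higher, and AIMP2 (-0.61) and SRSF9 (-0.39) were lower (edgeR adjusted p from 6.1e-06 to 0.0087). The call of SRSF9 ended without cytosol 1 (-0.45) or cytosol 2 (-0.37). The APOBEC1 cofactors SYNCRIP (0.93 ± 0.14, edgeR adjusted p = 0.0003) and RBM47 (0.56 ± 0.11, edgeR adjusted p = 0.0021) were both higher, and the other genes of that list, A1CF and APOB, did not pass the filter. Over all entries 28.8% were higher and 29.0% lower, and the lists were described and not tested as sets.

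The genes whose centred log2 pattern over the 4 sort libraries was most like each member are named without any claim of shared function. For ADAR they were ORMDL1, ST13 and CYP4V2, with root mean square differences of 0.00815, 0.00884 and 0.0118. For ADARB1 they were ABCC10, ATP8B2 and MYO19 (0.00745 to 0.00892), and for APOBEC they were EXOSC10, DALRD3 and MIEF1 (0.00424 to 0.00687). MYCT2AGFP was most like MEPCE, SEMA4D and NADSYN1 (0.00724 to 0.00969) and HAT2AmCherry most like DENND3, USP28 and TMEM131L (0.00969 to 0.0116). With 4 libraries such likeness is common, since between 1180 and 1455 of the 10610 genes compared lay within 0.1 of each member.

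The editing tables give, per gene, edited reads, reads and the editing score, which is the share of reads that carry an edit. Among the members they list ADAR and ADARB1, so the construct entries were compared in the sort counts only. In the A-to-I table of the sort, 74.6% of the 11303 genes tested passed, since 73.5% had a higher score in sorted P-bodies, against 1.08% a lower one (edgeR on edited and unedited reads, adjusted p under 0.05), and the median log2 odds ratio was 1.46. ADAR and ADARB1 were both called higher, close to this median. ADAR scored 12.6% and 13.3% in sorted P-bodies (758 of 6025 and 643 of 4829 reads), against 5.12% and 4.31% in cytosol (476 of 9291 and 425 of 9870 reads). ADARB1 scored 13.7% and 15.0% in sorted P-bodies (961 of 6994 and 802 of 5338 reads), against 5.51% and 4.89% in cytosol (509 of 9245 and 452 of 9249 reads). For both genes the exact 95% counting intervals of the libraries, which cover counting error only, did not overlap between the fractions. The log2 odds ratios were 1.59 ± 0.12 for ADAR (edgeR adjusted p = 1.2e-08) and 1.61 ± 0.12 for ADARB1 (edgeR adjusted p = 7.3e-09), at the 57.1th and 58.3th percentile of all genes tested. With each library centred on its median log2 odds they were 0.18 (adjusted p = 0.18) and 0.21 (adjusted p = 0.11), and neither passed.

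Among the scores of all genes tested, both transcripts stood between the 80.9th and 88.3th percentile in sorted P-bodies and between the 73.8th and 82.4th in cytosol. Of the 18 double-stranded RNA genes tested 17 were called higher, as were 9 of 10 genes reported to act on ADAR enzymes, 5 of 10 other deaminases and 8 of 12 recoding substrates. The share called higher over all genes tested was 73.5%. AZIN1 scored 14.5% and 16.4% in sorted P-bodies, against 4.69% and 3.23% in cytosol (log2 odds ratio 2.14). ADAT2 scored 12.5% and 11.8% in sorted P-bodies, against 2.32% and 1.55% in cytosol (2.82). ILF2 scored 3.88% and 4.02% in sorted P-bodies, against 0.45% and 0.481% in cytosol (log2 odds ratio 3.13). FLNA went the other way, at 6.57% and 6.35% in sorted P-bodies, against 7.88% and 8.15% in cytosol (-0.33 ± 0.09, edgeR adjusted p = 0.0022), a call that ended with limma (-0.27, adjusted p = 0.14) and without sorted P-bodies 2 (-0.31, adjusted p = 0.061). Centred on the library medians, FLNA was at -1.74 (adjusted p = 5e-12). APOBEC3C did not pass, at 8.04% and 6.25% in sorted P-bodies, against 7.87% and 7.01% in cytosol (-0.02 ± 0.22, edgeR adjusted p = 0.95).

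In the C-to-U table of the sort ADAR was called higher and ADARB1 was not, and the difference between their odds ratios was not tested. Of the 10613 genes tested 68.3% passed, since 68.0% had a higher C-to-U score in sorted P-bodies, against 0.292% a lower one, with a median log2 odds ratio of 2.33. ADAR scored 0.468% and 0.801% in sorted P-bodies, against 0.0544% and 0.0102% in cytosol. Its edited reads were 27 of 5766 and 37 of 4617 in sorted P-bodies, and 5 of 9183 and 1 of 9763 in cytosol, so the cytosol values rest on 6 edited reads. The log2 odds ratio was 4.24 ± 0.64 (edgeR adjusted p = 9e-05, 88.9th percentile), within batches 3.00 and 5.74. After centring on the library medians it was 2.14 (adjusted p = 0.058), and limma on log2 scores with a pseudocount of 0.234% gave 1.68 (adjusted p = 0.014).

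ADARB1 had few C-to-U edited reads in either fraction of the sort. It scored 0.059% and 0.0972% in sorted P-bodies (4 of 6776 and 5 of 5146 reads), against 0.0329% and 0.0656% in cytosol (3 of 9129 and 6 of 9147 reads). The groups overlapped, and the log2 odds ratio of 0.62 ± 0.79 did not pass (edgeR adjusted p = 0.50, 95% interval -0.93 to 2.16). After centring on the library medians it had the other sign, at -1.53 (adjusted p = 0.24), and limma on log2 scores gave 0.14 (adjusted p = 0.65). In sorted P-bodies its exact 95% intervals (0.0161% to 0.151% and 0.0316% to 0.227%) lay below those of ADAR (0.309% to 0.681% and 0.565% to 1.10%). Both transcripts were low among all genes, whose median C-to-U score was 2.76% and 3.12% in sorted P-bodies, against 0.633% and 0.595% in cytosol. The mRNA of the APOBEC1 cofactor SYNCRIP, by comparison, scored 15.8% and 16.8% in sorted P-bodies, against 2.62% and 1.26% in cytosol (3.35 ± 0.33, edgeR adjusted p = 5e-06).

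**Figure D4:**
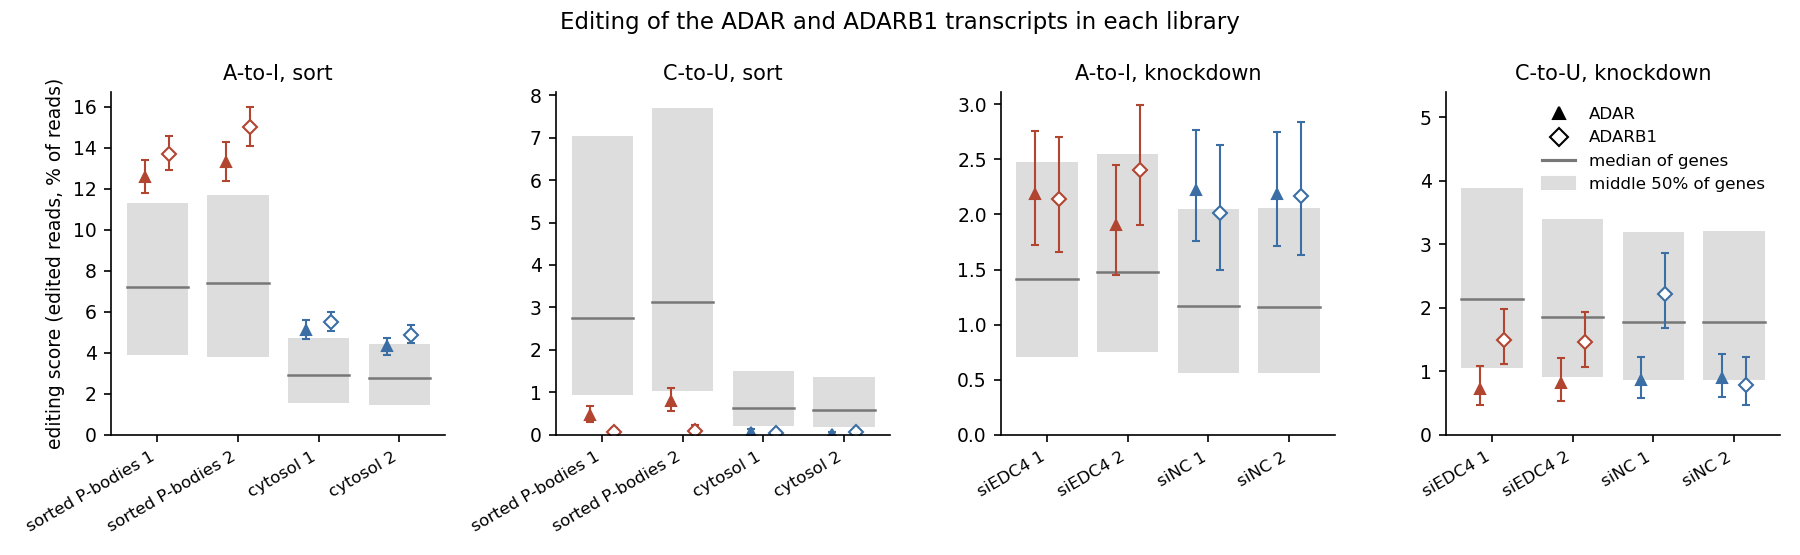
Editing scores of ADAR (filled triangles) and ADARB1 (open diamonds) in each library of the 4 editing tables, with exact 95% counting intervals, over the median and middle 50% of the genes tested in that library. Sorted P-bodies stand left of cytosol and siEDC4 left of siNC, and each panel has its own scale. Both transcripts lie above the gene median in every A-to-I library, and ADARB1 lies under 0.1% in every C-to-U library of the sort and between 0.789% and 2.22% in the knockdown.

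The knockdown addressed EDC4, a scaffold of the mRNA decapping complex. EDC4 reads numbered 245 and 186 in siEDC4 cells, against 684 and 609 in siNC cells. That decrease was the lowest value of all 10642 genes tested (log2 fold change -1.56 ± 0.14, edgeR adjusted p = 2.6e-25). Reads of siNC 1 and siNC 2 differed by about sampling noise (chi-square over degrees of freedom 1.02, p = 0.062), against 3.46 for siEDC4. In the C-to-U table the siNC reads gave 1.02 with a chi-square p of 0.047. The siNC libraries were summed and counted as 1 sample, a choice made from earlier results of these data. The spread behind these tests came from the siEDC4 libraries. Reads per listed gene summed to between 5697417 and 6294767 per library.

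ADARB1 reads were higher after the knockdown, in a comparison where 0.564% of genes passed, 0.432% higher and 0.132% lower. These are reads of the A-to-I table, as counts per entry cover only the sort. In the sort that table held 53.3% to 60.8% of ADARB1's counts, a low share among listed genes. Its reads there gave ADARB1 a log2 fold change of -0.01, against -0.20 from the counts. In the knockdown ADARB1 had 3182 and 3207 reads in siEDC4 cells, against 2542 and 2391 reads in siNC cells. Scaled to library size by TMM that was 523 and 563 CPM in siEDC4 cells and 408 and 416 CPM in siNC cells. The log2 fold change was 0.40 ± 0.11, or 1.32-fold (edgeR adjusted p = 0.046, 95% interval 0.19 to 0.61), with 0.36 and 0.44 within batches, and 292 genes had a larger one. With the siNC libraries summed, 46 genes were higher and 14 lower, and without siNC 1 there were 24 and 8. With 4 separate libraries 111 were higher and 43 lower, and adding the batch number as a block to that fit gave 303 and 218. The call of ADARB1 was lost in the reads of the C-to-U table (0.40, adjusted p = 0.060) and without siNC 1 (0.38, adjusted p = 0.10), and it held with 4 separate libraries (adjusted p = 0.0051), with the batch number as a block (adjusted p = 5e-07) and in DESeq2 (adjusted p = 0.00055).

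ADAR did not pass. It had 3281 and 3051 reads in siEDC4 cells, against 3469 and 3247 in siNC cells, which was 540 and 536 CPM in siEDC4 cells and 557 and 566 CPM in siNC cells. The log2 fold change of -0.06 ± 0.11 was far from the threshold (edgeR adjusted p = 0.98, 95% interval -0.27 to 0.15). Inside each library ADARB1 over ADAR was 0.97 and 1.05 in siEDC4 cells, against 0.733 and 0.736 in siNC cells. Of the other deaminases 11 were tested and 0 passed, and APOBEC3C, lower in sorted P-bodies, had 40.5 and 43.7 CPM in siEDC4 cells and 41.2 and 43.7 CPM in siNC cells. Of the 12 recoding substrates tested 1 passed, CYFIP2, a recoding target of ADAR2, at 185 and 189 CPM in siEDC4 cells, against 259 and 235 CPM in siNC cells (-0.41 ± 0.11, edgeR adjusted p = 0.044). The call of CYFIP2 was lost without siNC 1 (-0.33, adjusted p = 0.25) and with library-size scaling (-0.40, adjusted p = 0.061). None of the 17 double-stranded RNA genes, the 10 genes reported to act on ADAR enzymes or the 2 APOBEC1 cofactors tested passed in edgeR. Over all genes tested 0.564% passed, so few calls would be made in lists of these sizes.

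**Figure D5:**
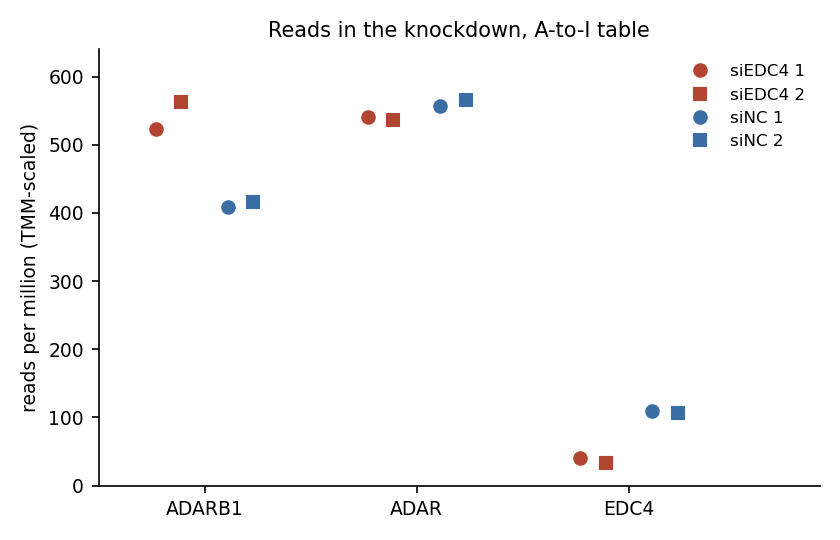
Reads of ADARB1, ADAR and EDC4 in the knockdown libraries, as TMM-scaled CPM of the A-to-I table's reads, with siEDC4 left of siNC. Points are libraries. ADARB1 lies at 523 and 563 in siEDC4 cells, above 408 and 416 in siNC cells, and EDC4 lies below its siNC level in both siEDC4 libraries.

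No editing score passed in the knockdown. In edgeR 0 of 9271 genes passed in the A-to-I table (502 at an unadjusted p under 0.05) and 0 of 9745 in the C-to-U table (407 at an unadjusted p under 0.05), and limma on log2 scores and edgeR on 4 separate libraries gave 0 in both. With 4 separate libraries and the batch number as a block, 25 genes were higher and 1 lower for A-to-I and 3 were higher and 1 lower for C-to-U, ADAR and ADARB1 not among them. Edited reads of the siNC libraries differed beyond sampling noise, and by more than their reads did (chi-square over degrees of freedom 1.30 for A-to-I and 1.31 for C-to-U, against 1.02 for reads). The siNC libraries were still summed to 1 sample in the main fits. The SEs and intervals of these scores therefore leave out the spread between the siNC libraries. A-to-I scores of ADAR were 2.19% and 1.90% in siEDC4 cells, against 2.22% and 2.19% in siNC cells (log2 odds ratio -0.11 ± 0.29, 95% interval -0.69 to 0.47). Those of ADARB1 were 2.14% and 2.40% in siEDC4 cells, against 2.01% and 2.17% in siNC cells (0.12 ± 0.30, interval -0.46 to 0.70). The median over all genes was 0.30, above both values. Summed over libraries, ADARB1 had 145 edited of 6389 reads in siEDC4 cells, against 103 of 4933 in siNC cells.

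C-to-U scores of ADAR were 0.729% and 0.819% in siEDC4 cells, against 0.866% and 0.895% in siNC cells (log2 odds ratio -0.19 ± 0.43, 95% interval -1.04 to 0.67). Those of ADARB1 were 1.50% and 1.46% in siEDC4 cells, against 2.22% and 0.789% in siNC cells. The siNC libraries differed in this score beyond their exact 95% intervals (1.69% to 2.87% and 0.476% to 1.23%), and both siEDC4 libraries lay between them. The log2 odds ratio of ADARB1 was -0.05 ± 0.40, with an SE that leaves out this spread between the siNC libraries. That odds ratio took either sign when a siNC library was left out, at 0.91 without siNC 1 and -0.60 without siNC 2. The knockdown libraries are labelled polyA RNA, unlike those of the sort, and the tables are separate, so the ADARB1 scores of 0.0329% to 0.0972% in the sort and 0.789% to 2.22% in the knockdown are set side by side only.

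Marker genes were described in the sort libraries only. No reference level was set for them, so they do not identify the labelled cell type. Of 5 blood markers, CD3E and HBB were at 0 in all sort libraries, and their summed level was 0.635 and 0.888 CPM in sorted P-bodies, against 1.19 and 1.64 CPM in cytosol. Neurofilament genes, which HEK293 cells are known to express, summed to 120 and 116 CPM in sorted P-bodies, against 88.8 and 89.8 CPM in cytosol, and 4 fibroblast markers to 20.3 and 16.5 CPM in sorted P-bodies, against 27.9 and 30.5 CPM in cytosol. The nuclear RNAs MALAT1 and NEAT1 summed to 1440 and 2420 CPM in sorted P-bodies, against 1570 and 1470 CPM in cytosol, highest in sorted P-bodies 2, and their part in the members' values was not tested.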

How the data were processed

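Per the submitters' processing notes, the authors used featureCounts 2.0.1, STAR 2.7.9a, cutadapt 1.18 and FastQC 0.11.9, and the build was hg38. Annotation, strand, multiply mapped reads and the calling of edited sites were not given in the sources used here. The authors deposited raw read counts per entry for the sort, and edited reads per gene as counts. Reads in the deposited editing tables were treated as estimated counts, and every value used was whole. The deposited editing score is a fraction, equal to edited reads over reads to within 5.0e-08, and is printed as a percentage. Left out were 3 broken lines of ANK2 per editing file.

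Counts and reads were tested with edgeR 4.0.16 in R 4.3.3 (TMM, filterByExpr, quasi-likelihood, Benjamini-Hochberg). Editing was tested by the same method on edited and unedited reads, for genes whose edited reads appeared in 2 or more libraries. SEs were derived by dividing the absolute estimate by the root of F, and intervals of a change span 1.96 SE to each side. That span ignores the degrees of freedom of the F test. Where those are few, as in the sort, the intervals are narrower than the p-values imply. Both methods were run on simulated data in which few genes changed, in equal numbers up and down. The changes simulated for counts were larger than those of the members, and the spread setting was the same for all genes. Those runs therefore do not show how well changes of the members' size are found. The editing scores of the sort differ from that setting, as most moved 1 way. C-to-U editing and editing in the knockdown were not simulated. Alternatives were library-size and RLE scaling, no filter, DESeq2 1.42.0, limma 3.58.1 with a pseudocount at the 10th percentile of non-zero scores (1.2% and 0.234% for A-to-I and C-to-U in the sort, 0.454% and 0.579% in the knockdown), centring, the batch block and leaving out each library. The use of the A-to-I table's reads for sort levels was chosen after seeing the data. The labels' batch number pairs same-numbered libraries, whose deviations from the group means correlated by 0.0472 in the sort and -0.0345 in the knockdown. Score intervals are exact binomial at 95%, and a count of 0 has an upper limit of 3 counts. Both cover counting error only, as no molecular identifiers tell repeated reads of a molecule apart. Sequences came from GENCODE v29. Likeness used log2 of CPM plus 0.5 for genes with a mean of at least 10 CPM.

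The members and gene lists were chosen with earlier results of these data known. The rule for naming took the 5 members, entries without an Ensembl number, EDC4, up to 4 genes per list with the smallest p each way among those called, the gene of each list with the highest mean CPM, and 3 genes of like pattern per member. Editing of APOBEC3C and the knockdown values of APOBEC3C were added after their values were seen. Some genes named by that rule are not reported here.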

Additional observations from a re-analysis of the deposited data

How the results depend on the processing

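Members kept their direction and side of the threshold in 105 of 125 values under alternatives that gave a test, and their direction in the 12 values without a siEDC4 library, which had no test. Library-size scaling moved the median log2 fold change of all sort entries to -0.23 from -0.03 and the split of calls to 4257 higher and 6911 lower, against 5401 and 5440. Under it ADARB1 passed (-0.40, adjusted p = 0.012) and APOBEC stood at -0.086, but relative to the median ADARB1 was at -0.17 in both scalings, ADAR at -0.31 and APOBEC at 0.15. HAT2AmCherry was at 0.01 with RLE factors and with DESeq2. Leaving out 1 library gave -0.40 to -0.31 for ADAR in the sort, -0.27 to -0.17 for ADARB1 and -0.087 to 0.010 for HAT2AmCherry. In the knockdown it gave 0.35 to 0.45 for ADARB1 reads and -0.60 to 0.91 for its C-to-U log2 odds ratio. ADARB1 reads of the C-to-U table gave 0.40 (adjusted p = 0.060).

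Centring gave 0.18 (ADAR) and 0.21 (ADARB1) for A-to-I in the sort, 2.14 and -1.53 for C-to-U, and -0.22 for ADARB1 A-to-I in the knockdown. It called 1905 genes higher and 1406 lower for A-to-I and 1465 and 388 for C-to-U, and 1 lower for C-to-U in the knockdown. Limma called 338 lower for A-to-I and 274 for C-to-U, against 122 and 31. For ADARB1 C-to-U in the knockdown, 4 separate libraries gave 0.000775, limma 0.071 and the replicate block 0.051. The replicate block called 71 lower for A-to-I in the sort, 25 higher and 1 lower for A-to-I and 3 and 1 for C-to-U in the knockdown. For knockdown reads, 4 separate libraries called 111 higher and 43 lower, against 46 and 14 with siNC summed, the replicate block on those 4 libraries called 303 and 218, and library-size scaling with siNC summed called 8 lower. The block changed no member's call. Leaving out 1 library gave 41 to 99 lower for A-to-I and 12 to 21 for C-to-U in the sort, and 24 (without siNC 1) to 38 higher and 8 (without siNC 1) to 13 lower for knockdown reads. The low ends in the sort were without cytosol 2 for A-to-I and without sorted P-bodies 1 for C-to-U. The causes were not tested. The C-to-U scores of ADAR and ADARB1 in the sort rest on 1 to 37 edited reads per library.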
